A study of Mus musculus with 32 samples.

Results

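Tight junction genes were described cell by cell in the median eminence (ME) of mice, the part of the hypothalamus that lies on the floor of the third ventricle. The 9 genes were chosen by symbol, with earlier results of these data known, out of 27998 genes in the matrix. They are 6 claudins (Cldn1, Cldn3, Cldn5, Cldn10, Cldn11 and Cldn12), occludin (Ocln), junctional adhesion molecule A (F11r) and zonula occludens 1 (Tjp1). All 9 were found in the matrix, and the barrier cell types asked about were endothelial cells, tanycytes, ependymocytes, oligodendrocytes and meningeal cells.

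The ME was taken from C57B/L6 mice that were all male and 40 to 47 days old. 5 mice had been fasted overnight for 16 h, and 5 had been refed normal chow for 1 h after such a fast. The tissue of each condition was combined and dissociated with papain, live single cells were sorted, and each pool was split over 2 libraries made with droplet-based 3′ chemistry. Captured transcripts carry a molecular tag (UMI) so that copies made by PCR count once. The matrix held 5982 cells and 29288898 UMIs, with a median of 3837 UMIs per cell and a range from 1533 to 25054. A number from 1 to 4 closes every barcode, but nothing links it to fasting or refeeding. The cells were therefore pooled as 1 sample, and refed cells were not compared with fasted ones. There was no replicate and no test was run. Levels (CPM) are the UMIs of a gene over the cells of a type per 1e+06 UMIs of all genes in that type, with an exact Poisson 95% interval. Intervals, here and for shares of cells (exact Clopper-Pearson), cover counting error only. In pooled cells of 1 sample, they say nothing about the spread between mice.

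Tight junctions seal the space between neighboring cells. Claudins span the membrane and set which ions and solutes pass, occludin and F11r span the membrane beside them, and Tjp1 is a scaffold that ties these proteins to the actin cytoskeleton. In most of the brain the seal lies between endothelial cells and forms the blood-brain barrier. In the ME many capillaries are fenestrated, their pores are bridged by a diaphragm protein encoded by Plvap, and tanycytes, the elongated glia that line the ventricle floor, carry tight junctions between blood-exposed tissue and ventricular fluid. In myelin, Cldn11 forms the junction strands between the membrane layers.

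The genes lie on GRCm38 as follows. Cldn5 spans chr16:18776847-18778262 on the plus strand and Cldn1 spans chr16:26356642-26371841 on the minus strand. Cldn11 spans chr3:31149920-31164324 and Cldn10 spans chr14:118787908-118875489, both on the plus strand. Cldn3 spans chr5:134986214-134987472 on the plus strand, where an antisense gene, Wbscr25, overlaps it, and Cldn12 spans chr5:5489537-5514958 on the minus strand. Ocln (chr13:100496507-100552718) and Tjp1 (chr7:65296165-65527781) lie on the minus strand and F11r (chr1:171437535-171464603) on the plus strand. Tjp1 is overlapped by Gm44794 and Gm44792 on its own strand, which strand cannot tell apart from it, and by Gm44795 on the other. Cldn10 is overlapped by n-R5s51 on the other strand. The start regions of the 3 claudins with the widest range between cell types are shown as RefSeq gives them for GRCm38.p6, from 250 bases before to 50 bases after the start. Cldn10 has a pair of starts far apart in this reference. Capitals mark matches on either strand to short strings that transcription factors are known to read. The CCAAT box was searched by its own letters. The first of the strings for SOX factors was AACAAT, and the second string for these factors was ACAAAG. For ETS factors the first string searched was CAGGAA, and the second string for these factors was CCGGAA. For FOX factors the string was TGTTTAC, and for the TATA box the string that was searched was TATAAA. No printed match overlaps another.

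Cldn5 (chr16:18776597-18776896, plus strand): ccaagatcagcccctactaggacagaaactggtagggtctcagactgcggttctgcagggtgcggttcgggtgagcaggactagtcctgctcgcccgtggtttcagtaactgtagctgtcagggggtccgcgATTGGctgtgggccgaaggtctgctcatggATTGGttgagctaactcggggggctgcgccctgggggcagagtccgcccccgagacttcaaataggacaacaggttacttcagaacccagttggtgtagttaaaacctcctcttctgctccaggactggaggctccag
Cldn11 (chr3:31149670-31149969, plus strand): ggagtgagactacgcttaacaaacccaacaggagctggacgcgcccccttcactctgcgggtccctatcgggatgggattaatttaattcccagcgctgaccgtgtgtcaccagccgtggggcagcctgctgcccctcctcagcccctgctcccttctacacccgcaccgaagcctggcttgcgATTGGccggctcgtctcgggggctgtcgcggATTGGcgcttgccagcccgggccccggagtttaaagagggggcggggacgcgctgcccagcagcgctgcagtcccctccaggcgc
Cldn10, upstream start (chr14:118787621-118787920, plus strand): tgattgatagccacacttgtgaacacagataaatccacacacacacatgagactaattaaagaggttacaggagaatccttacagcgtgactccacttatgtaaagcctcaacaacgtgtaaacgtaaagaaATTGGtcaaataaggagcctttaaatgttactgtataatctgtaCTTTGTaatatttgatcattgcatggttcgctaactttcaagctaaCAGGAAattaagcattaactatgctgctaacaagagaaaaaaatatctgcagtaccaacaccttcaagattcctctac
Cldn10, downstream start (chr14:118854700-118854999, plus strand): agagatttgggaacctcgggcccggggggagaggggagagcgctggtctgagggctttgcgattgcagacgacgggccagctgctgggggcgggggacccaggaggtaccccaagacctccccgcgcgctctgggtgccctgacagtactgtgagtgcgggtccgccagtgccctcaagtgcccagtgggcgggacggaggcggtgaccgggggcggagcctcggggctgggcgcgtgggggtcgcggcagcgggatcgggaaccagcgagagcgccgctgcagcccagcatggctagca

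Cldn5 and Cldn11 each held 2 matches to CCAAT, read on the minus strand as ATTGG, and no match to the other strings. Those of Cldn5 began at -118 and -88 from the start, and those of Cldn11 at -66 and -35. The upstream Cldn10 start held 1 match each to the CCAAT box, the second SOX string and the first ETS string, and the downstream start held none. The downstream start was also richer in CpG, with 27 CpG and 72% G or C against 4 and 36% upstream. Of 32851 promoters of this length, 37.4% held the CCAAT box, 10.7% the first and 18.7% the second SOX string, 30.6% the first and 14.9% the second ETS string, 3.65% the FOX string and 13.6% the TATA box, and the median promoter held 7 CpG. The CCAAT box was added to the strings after the sequences were seen. A match describes letters, and since reads came from 3′ ends, the counts do not tell which Cldn10 start was used.

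The cells fell into 24 clusters, made with all 72 junction and transport genes kept out of the clustering, so that no level of a listed gene shaped the groups. 21 clusters were named from marker genes, in 13 types, and their sizes ranged from 75 mural-like cells to 1438 tanycyte-like cells. Of the barrier types there were 84 endothelial-like cells, 1438 tanycyte-like cells, 202 ependymocyte-like cells, 666 mature oligodendrocyte-like cells and 268 vascular and leptomeningeal cell (VLMC)-like cells, the meningeal type. A further cluster of 41 cells passed the marker rule for the arachnoid barrier, the sealed layer of the meninges, through Slc47a1, Perp and Klf5. Its leading genes were mixed, however, with Krt17 and Ly6d beside Igfbp6 and Slc47a1, so it is called the Ccn3 and Spon2 cluster after its first genes. Ccn3 and Spon2 were high in different cells of the cluster, as given below, so the name does not mean cells with both. Clusters with 215 cells stayed unnamed, and 3 cells rich in haemoglobin transcripts were set apart. The 4 barcode numbers held 1359 to 1642 cells and 6508038 to 7806887 UMIs each, and 21 barcode sequences occurred under more than 1 number.

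Each of the major claudins was concentrated in a different cell type. Cldn5 was endothelial, Cldn11 oligodendroglial and Cldn10 astrocytic, with a lower level in tanycyte-like cells. Ocln was shared by endothelial-like, ependymocyte-like and tanycyte-like cells, F11r was highest in microglia-like cells, and Tjp1 and Cldn12 were spread over most types. Cldn1 and Cldn3 were close to the limit of detection, with 18 and 45 UMIs in the whole matrix. Genes with at least 50 UMIs were set against all other cells on the log2(CPM + 10) scale, which understates the difference of low genes, and 7 of the 9 genes passed that minimum. In endothelial-like cells 4 of them were at least 4-fold higher and 2 at least 4-fold lower, where 3.05% of all 13953 genes were higher and 5.05% lower. Ependymocyte-like cells had 1 higher and 3 lower (2.95% and 2.25% of all genes). Mature oligodendrocyte-like cells also had 1 higher and 3 lower (2.04% and 4.85%). Tanycyte-like cells had 0 higher and 2 lower (0.53% and 2.34%), and VLMC-like cells 0 higher and 1 lower (2.34% and 3.58%). The Ccn3 and Spon2 cluster had none in either direction (1.91% and 4.05%).

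Cldn5 encodes the main claudin of brain endothelium. Its level in endothelial-like cells was 5842 CPM (5523 to 6174), 339 times that of the next type, VLMC-like cells at 17.2 CPM (9.42 to 28.9). In the 4 barcode numbers the endothelial level was 6365, 5370, 6617 and 4934 CPM. All 4 were high and lay within 1.34 times of each other. Endothelial-like cells were 1.40% of the cells and held 90.4% of the Cldn5 UMIs. 78 of 84 endothelial-like cells (92.9%, 85.1 to 97.3) had a Cldn5 UMI, at a median depth of 2245.5 UMIs, against 1.24% of microglia-like cells at 3079.5 UMIs. After each cell was thinned to 1000 UMIs the shares were 89.3% and 0.995%. Outside the endothelial-like cells, 4 cells had 5 or more Cldn5 UMIs, with a maximum of 12 in a single VLMC-like cell. The log2 difference from all other cells was 8.65. In every other type the level was at most 17.2 CPM, and the intervals of neighbors in that order overlapped.

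The endothelial-like cells without Cldn5 were exactly those with Plvap. 6 of the 84 cells had a Plvap UMI, with 6 to 20 Plvap UMIs each and a median of 11.5, and all 6 had 0 Cldn5 UMIs. All 78 cells without Plvap had Cldn5, from 2 to 60 UMIs with a median of 15. The groups did not overlap in Cldn5, while in Plvap they differ by the way they were drawn. How many of all genes part the groups in this way was not counted. Cldn5 was at 6292 CPM (5949 to 6650) without Plvap, which is at least 32.3-fold higher than with Plvap, taking 3 UMIs over the 6 cells as the floor. 3 of the 6 cells were in barcode number 4, and without that number the bound was 13.1-fold. The depth of both sets was alike, with medians of 2274.5 UMIs with Plvap and 2245.5 without. The cells with Plvap carried 7 to 9 of the 10 endothelial markers, and 1 doublet was called in each set. They came from 3 barcode numbers (2, 1, 0 and 3 cells in numbers 1 to 4). Outside the endothelial-like cells, Plvap reached at most 3 UMIs per cell. Since the split was drawn on Plvap counts in 6 cells of 1 sample, the levels are a description.

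**Figure D1:**
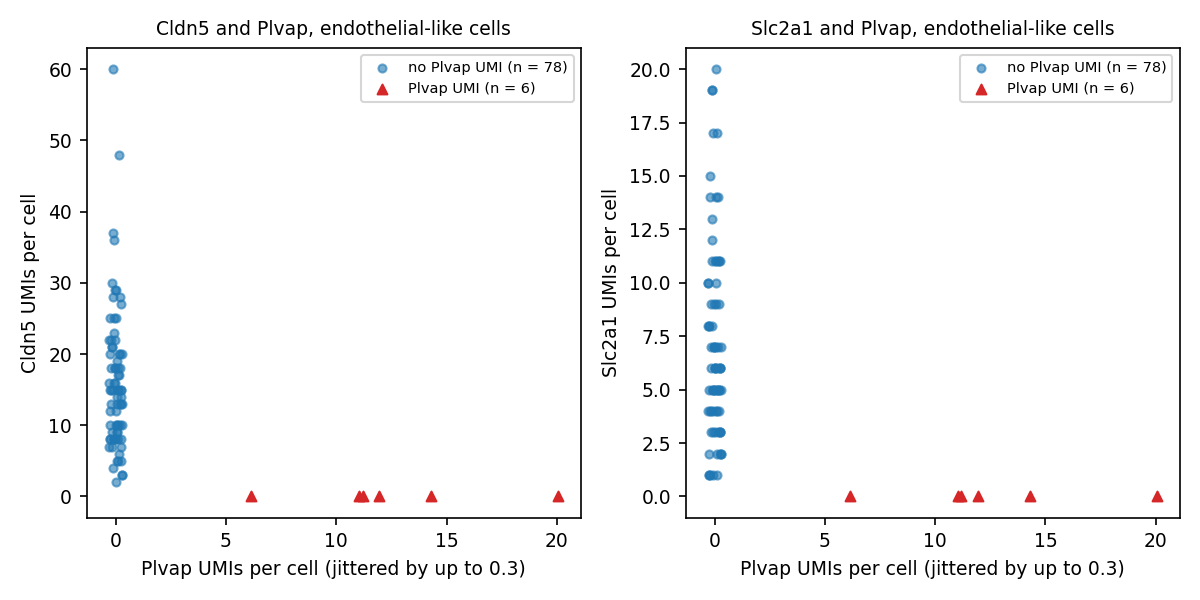
UMIs of Cldn5 (left) and of Slc2a1 (right) against UMIs of Plvap in each endothelial-like cell. Circles are the 78 cells without a Plvap UMI and triangles the 6 cells with one, jittered along the horizontal axis. The triangles all lie at 0 on both vertical axes, and every circle lies above 0.

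The other junction genes had few counts in the cells with Plvap. Ocln had 0 UMIs in the 6 cells with Plvap and 496 CPM (403 to 604) in the others, at least 2.55-fold higher. Without barcode number 4 this bound was 1.01-fold. F11r was at 325 CPM (105 to 757) with Plvap and 331 CPM (256 to 421) without. Tjp1 was at 195 CPM (40.2 to 569) and 271 CPM (203 to 353). The intervals of F11r and of Tjp1 overlapped and are wide, as they rest on 5 and 3 UMIs in the cells with Plvap. All 5 F11r UMIs came from barcode number 4, and without it F11r had 0 UMIs with Plvap, with an upper limit of 585 CPM. Slc2a1, the glucose transporter of the blood-brain barrier, had a UMI in all 78 cells without Plvap and in 0 of 6 with it, which is at least 14.3-fold higher at 2776 CPM, or 5.92-fold without barcode number 4. Mfsd2a, a lysophospholipid transporter that also limits transcytosis, was at 356 CPM without Plvap and Slco1c1, a thyroxine transporter, at 982 CPM. Both had 0 UMIs with Plvap, so they were at least 1.83-fold and 5.04-fold higher without it. Without barcode number 4, Mfsd2a (357 CPM) was under the floor of 476 CPM and had no bound, and that of Slco1c1 was 2.05-fold. Without number 1 the Slco1c1 bound was 3.28-fold. The efflux pump gene Abcg2 was at 844 CPM (449 to 1443) with Plvap and 1177 CPM (1032 to 1338) without, with overlapping intervals. Abcb1a, the other efflux pump, was at 260 CPM (70.7 to 665) and 852 CPM (728 to 990). These intervals do not overlap, but they overlapped when any 1 of barcode numbers 1, 2, 3 and 4 was left out. In the other direction, the adherens junction gene Cdh5 was at 649 CPM (311 to 1194) with Plvap and 306 CPM (234 to 393) without. Their intervals overlapped. Of the 10 endothelial markers, Emcn (3895 against 521 CPM), Kdr (909 against 155 CPM) and Egfl7 (2207 against 1313 CPM) were higher in the cells with Plvap, with intervals that did not overlap. Slco1a4 (195 against 4769 CPM), Ly6c1 (1428 against 5556 CPM), Itm2a (3440 against 8512 CPM) and Ly6a (1103 against 2861 CPM) were lower, also with separate intervals. The intervals of the remaining markers, Flt1, Tie1 and Tek, overlapped. Those of Egfl7 lay close, at 1528 to 3084 CPM with Plvap and 1158 to 1482 CPM without. The markers were not recomputed with a barcode number left out. The share of all genes with separate intervals between these sets was not counted.

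Ocln encodes occludin. Its order of levels was endothelial-like (460 CPM, 374 to 561), ependymocyte-like (159 CPM, 135 to 186) and tanycyte-like cells (84.9 CPM, 77.8 to 92.5), and these intervals were separate. In barcode numbers 1 to 4 the endothelial level was 387, 490, 507 and 437 CPM. The ependymocyte level was 126, 147, 156 and 189 CPM, and the tanycyte level was 74.3, 70.0, 109 and 93.5 CPM. The 3 ranges over barcode numbers did not overlap. Because tanycyte-like cells were numerous, they held 59.3% of all Ocln UMIs. An Ocln UMI was found in 65.5% of endothelial-like cells, 55.0% of ependymocyte-like cells (median depth 4857 UMIs) and 29.5% of tanycyte-like cells (median depth 4177.5 UMIs), against 10 of 666 mature oligodendrocyte-like cells at 6150 UMIs. At 1000 UMIs per cell these shares were 40.5%, 12.4%, 8.55% and 0%. The last rests on 0 of 666 cells. The Ccn3 and Spon2 cluster followed with 36.9 CPM (14.8 to 76.0) from 7 UMIs, and every other named type lay at or below 9.99 CPM. The log2 difference from all other cells was 3.67 in endothelial-like and 2.25 in ependymocyte-like cells. In tanycyte-like cells it was 1.89, short of 4-fold.

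F11r encodes junctional adhesion molecule A, an immunoglobulin-type protein of tight junctions that leukocytes and platelets also carry. Its level was highest outside the barrier types, at 827 CPM (779 to 877) in microglia-like cells, which held 66.9% of its UMIs. In barcode numbers 1 to 4 this was 797, 818, 719 and 983 CPM. Number 4 was highest, and the range was 1.37-fold. 366 of 402 microglia-like cells (91.0%) had an F11r UMI, against 1.95% of mature oligodendrocyte-like cells, which were deeper, and at 1000 UMIs the shares were 59.7% and 0.150%. Endothelial-like cells came next with 330 CPM (258 to 417), and macrophage-like cells with 245 CPM (202 to 295), with overlapping intervals. The Ccn3 and Spon2 cluster followed with 137 CPM (89.5 to 201) and ependymocyte-like cells with 61.1 CPM (46.7 to 78.4). Tanycyte-like cells were lower, at 24.9 CPM (21.2 to 29.2). The log2 difference from all other cells was 2.40 in endothelial-like cells and -2.50 in mature oligodendrocyte-like cells (3.47 CPM).

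Tjp1 encodes the scaffold zonula occludens 1 and showed a much narrower range. It was at 265 CPM (201 to 343) in endothelial-like cells, and in barcode numbers 1 to 4 at 332, 214, 264 and 281 CPM. Mural-like cells came next with 75.6 CPM (44.0 to 121), clear of the endothelial interval. From there every pair of neighbors in the order had overlapping intervals, and tanycyte-like (36.4 CPM), ependymocyte-like (53.0 CPM), mature oligodendrocyte-like (51.8 CPM), VLMC-like (55.4 CPM) and astrocyte-like cells (51.5 CPM) lay close together. Neuron-like cells were lowest, at 11.5 CPM (9.06 to 14.4). The log2 difference of endothelial-like from all other cells was 2.52.

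Cldn11 encodes the claudin of myelin. It was at 8194 CPM (8111 to 8277) in mature oligodendrocyte-like cells, and all 666 of them had it, with 12 to 267 UMIs per cell and a median of 47.5. In barcode numbers 1 to 4 the level was 8006, 7871, 8382 and 8412 CPM, within 1.07 times of each other. These cells held 89.8% of the Cldn11 UMIs, and the log2 difference from all other cells was 5.47. Their clusters differed moderately, with 10368 CPM in 27 cells led by Mag and Nfasc, 8046 CPM in 553 cells led by Ptgds and Mal, and 7570 CPM in 86 cells led by Klk6 and Anln. Differentiating oligodendrocyte precursor (diffOPC)-like cells were intermediate, at 1913 CPM (1833 to 1995). 114 of 130 had a UMI, and the cells ranged from 0 to 189 UMIs with a median of 9. Precursor (OPC)-like cells were at 84.0 CPM (68.8 to 102), within the range of unrelated types. The diffOPC level depended on where the cluster ended. It became 4461 CPM in 111 cells when barcode number 1 was left out of the clustering and 2898 CPM in 107 cells without number 4.

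Cldn11 was also present at a low level in every other type, from 57.8 CPM in mural-like to 132 CPM in VLMC-like cells, apart from the Ccn3 and Spon2 cluster at 432 CPM (344 to 536). Cldn11 was set against the summed UMIs of 4 other oligodendrocyte genes, Mobp, Mal, Mog and Mag. RNA that a type makes itself from any of these genes also enters the ratio. The ratios are therefore a description and do not tell where the RNA came from. The ratio was 0.542 (0.536 to 0.549) in mature oligodendrocyte-like cells. It was 0.555 (0.497 to 0.618) in tanycyte-like, 0.519 (0.401 to 0.668) in ependymocyte-like, 0.582 (0.454 to 0.744) in OPC-like and 0.459 (0.359 to 0.584) in microglia-like cells. In these and in 5 further types, 9 in all, the interval overlapped that of mature oligodendrocyte-like cells. VLMC-like cells stood above it at 1.08 (0.815 to 1.44), and the Ccn3 and Spon2 cluster at 2.10 (1.42 to 3.16), which were 1.99 and 3.88 times the value of mature oligodendrocyte-like cells. The first rests on 107 Cldn11 UMIs and 99 of the other genes, and the second on 82 and 39. DiffOPC-like cells were also above it, 2.77 times, with 2184 Cldn11 UMIs against 1456. Their level of Mag, 992 CPM, was closer to that of mature oligodendrocyte-like cells (4042 CPM) than were Mobp (74.4 against 4238 CPM) and Mal (23.6 against 4569 CPM). Endothelial-like cells were below it, at 0.113 (0.0614 to 0.193), and 106 of the 133 UMIs in their denominator were of Mal, at 493 CPM. In barcode numbers 1 to 4 the VLMC ratio was 0.889, 1.09, 1.00 and 1.32. The values of mature oligodendrocyte-like cells were 0.543, 0.544, 0.568 and 0.519, each below the VLMC value of that number. In numbers 1 and 2 the VLMC intervals (0.424 to 1.85 and 0.441 to 2.73) included the mature oligodendrocyte value. In numbers 3 and 4 they lay above it (0.636 to 1.57 and 0.787 to 2.24). The cluster had 24, 6, 34 and 18 Cldn11 UMIs against 4, 0, 19 and 16 of the other genes. The part of free RNA in the low levels was not tested.

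**Figure D2:**
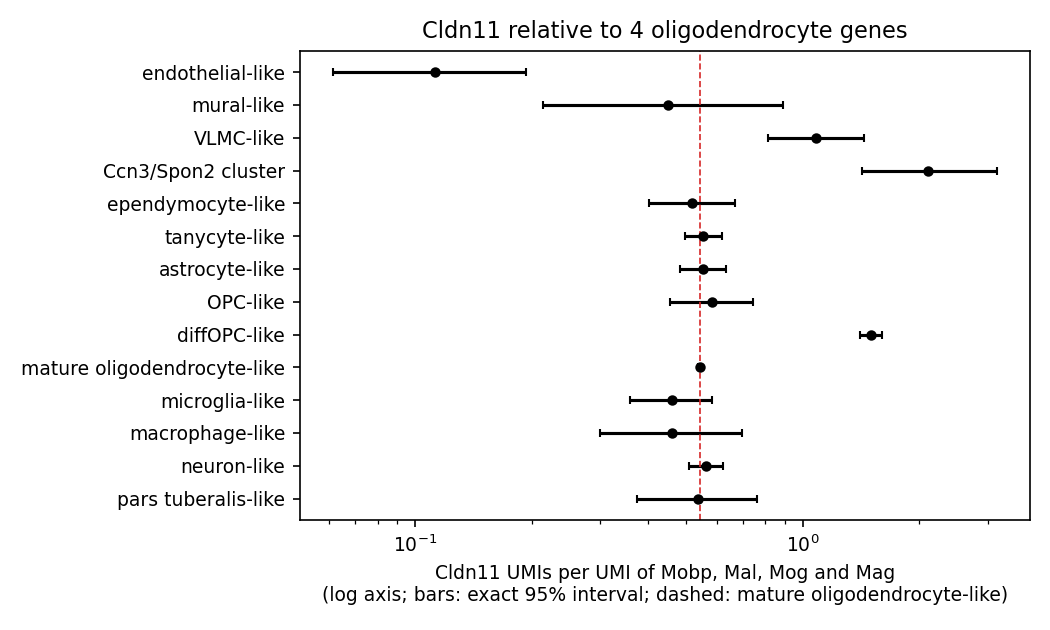
Cldn11 UMIs per UMI of Mobp, Mal, Mog and Mag in each cell type, on a log axis with exact 95% intervals. The dashed line is the value of mature oligodendrocyte-like cells, 0.542. VLMC-like cells (1.08), diffOPC-like cells and the Ccn3 and Spon2 cluster (2.10) lie to its right with their intervals, endothelial-like cells (0.113) lie to its left, and the intervals of the 9 remaining types overlap that of mature oligodendrocyte-like cells.

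Outside mature oligodendrocyte-like and diffOPC-like cells, Cldn11 was uneven between barcode numbers. It was at 66.3, 48.1, 124 and 122 CPM in numbers 1 to 4. The summed level of the 4 oligodendrocyte genes in the same cells was 117, 94.7, 190 and 239 CPM, and mature oligodendrocyte-like cells held 15.4%, 13.6%, 17.1% and 16.6% of the UMIs. In tanycyte-like cells Cldn11 was at 64.9, 40.9, 122 and 116 CPM, and in VLMC-like cells at 81.8, 58.9, 188 and 196 CPM. In 12 of the 14 types and clusters both numbers 3 and 4 lay above both numbers 1 and 2. The exceptions were diffOPC-like cells and the Ccn3 and Spon2 cluster. The 12 include mature oligodendrocyte-like cells, where 8382 CPM stood against 8006 CPM, and mural-like cells, with 0 UMIs in numbers 1 and 2. All types share the same 4 barcode numbers, so the 12 are not separate observations. The share of all genes with this order was not counted. The barcode numbers are not tied to fasting or refeeding, and the part of free RNA in the difference was not tested.

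**Figure D3:**
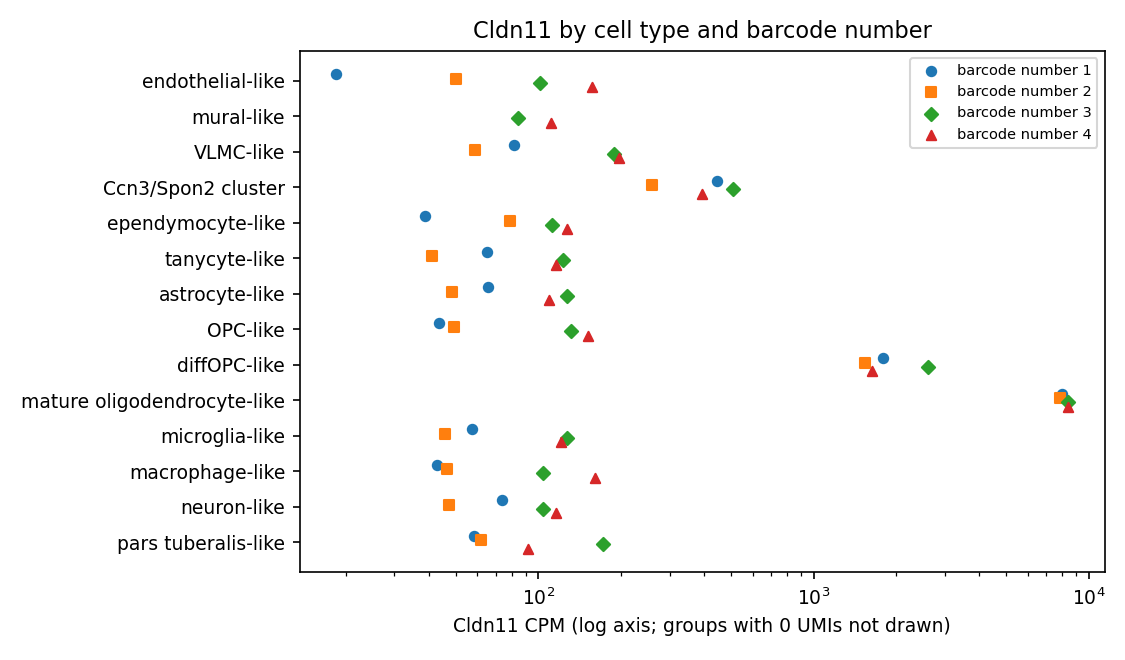
Cldn11 level (CPM, log axis) in each cell type for barcode numbers 1 to 4, shown by marker shape. Mature oligodendrocyte-like cells lie between 7871 and 8412 CPM, and in most other types numbers 3 and 4 lie to the right of numbers 1 and 2.

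Cldn10 encodes a claudin that forms ion-selective pores in epithelia. It was highest in astrocyte-like cells, at 1577 CPM (1538 to 1617), with values of 1562, 1616, 1615 and 1519 CPM in the 4 barcode numbers. These differ by a factor of 1.06. 97.5% of the 1420 cells had a UMI, with 0 to 13 UMIs per cell and a median of 4. Its level was alike in the 2 astrocyte-like clusters, 1574 CPM (1529 to 1619) and 1588 CPM (1508 to 1671). The Ccn3 and Spon2 cluster was at 753 CPM (635 to 887) and tanycyte-like cells at 391 CPM (376 to 407). Tanycyte-like cells ranged from 293 to 455 CPM over the barcode numbers, all below the astrocyte range. OPC-like cells followed at 124 CPM (105 to 145), and pars tuberalis-like and VLMC-like cells at 89.9 and 86.2 CPM. The remaining types lay between 18.6 and 33.6 CPM. A Cldn10 UMI was found in 45.6% of tanycyte-like cells and 12.9% of the deeper mature oligodendrocyte-like cells, and at 1000 UMIs per cell in 22.9% and 2.10%.

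Among the ventricular cells, Cldn10 covered a wider range of levels between clusters than Ocln, F11r or Tjp1. It was at 740 CPM (707 to 773) in 546 tanycyte-like cells led by Scn7a and Col25a1, at 217 CPM (197 to 239) in 537 led by S100a6 and Crym, and at 46.0 CPM (36.1 to 57.7) in 355 led by Gfap. Ependymocyte-like cells were at 28.0 CPM (18.6 to 40.5), and an unnamed cluster of 196 cells led by Dio3 at 21.7 CPM (12.4 to 35.2). All 3 tanycyte-like intervals were separate. Ocln had another order. It was at 159 CPM in ependymocyte-like cells, 120 CPM (106 to 137) in the S100a6-led, 75.3 CPM (65.1 to 86.7) in the Scn7a-led, 56.5 CPM (45.5 to 69.4) in the Gfap-led and 48.8 CPM (34.2 to 67.5) in the Dio3-led cells. The interval of the S100a6-led cells was separate from that of the Scn7a-led cells, and the other neighbors in this order overlapped. F11r was at 39.4 CPM (32.1 to 47.8) in the Scn7a-led, 19.7 CPM (14.0 to 27.0) in the S100a6-led and 8.08 CPM (4.30 to 13.8) in the Gfap-led cells. Tjp1 ranged from 27.8 to 43.5 CPM over the same 3 clusters, and the intervals at those ends overlapped.

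**Figure D4:**
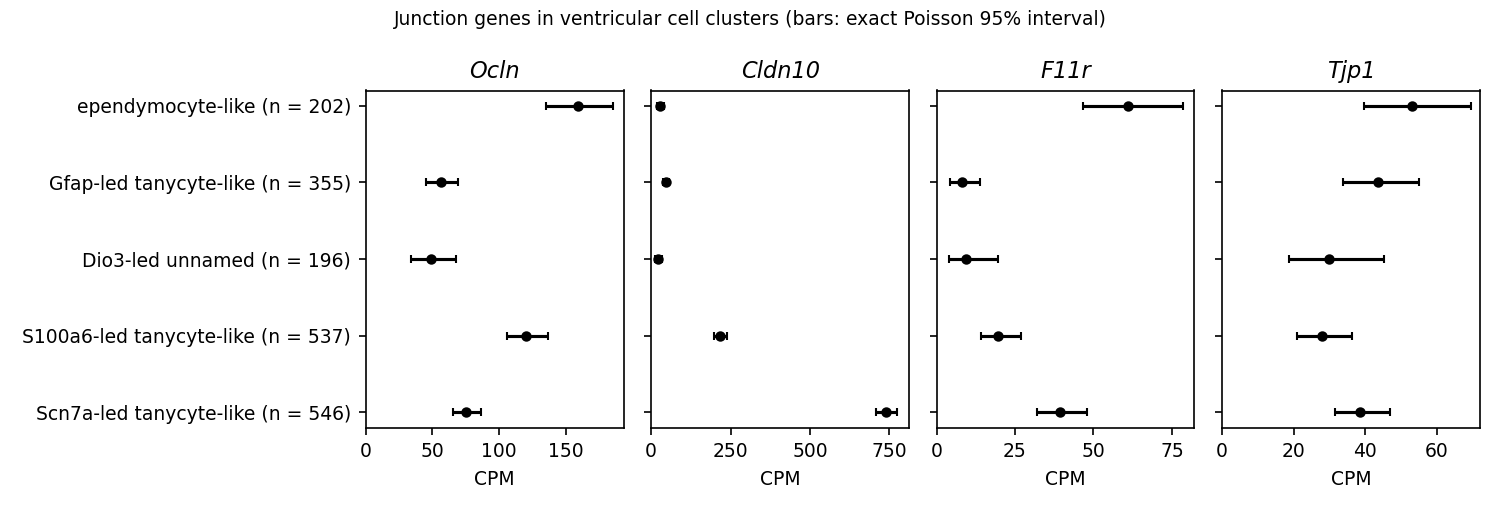
Level (CPM) of Ocln, Cldn10, F11r and Tjp1 in the 5 clusters of ventricular cells, with exact Poisson 95% intervals. Cldn10 is highest in the Scn7a-led tanycyte-like cells (740 CPM), and Ocln and F11r are highest in ependymocyte-like cells (159 and 61.1 CPM).

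Cldn12 encodes a claudin without the scaffold-binding tail motif of most family members. It was low and broad, at 32.5 CPM (23.3 to 44.1) in OPC-like, 27.1 CPM (23.2 to 31.3) in neuron-like and 21.9 CPM (17.5 to 27.1) in astrocyte-like cells, with overlapping intervals. Endothelial-like cells had 9.30 CPM from 2 UMIs. Mature oligodendrocyte-like cells were lower, at 4.12 CPM (2.48 to 6.43), and microglia-like cells at 1.49 CPM (0.181 to 5.40). Cldn3 gave 18 of its 45 UMIs in 12 pars tuberalis-like cells, the endocrine cells at the pituitary stalk, for a level of 36.0 CPM (21.3 to 56.9). The Ccn3 and Spon2 cluster had 36.9 CPM (14.8 to 76.0) from 7 UMIs in 3 cells, with 4 UMIs in barcode number 3 and 3 in number 4. Clustering without barcode number 1 gave a different cluster under the same rule, with 0 Cldn3 UMIs. Tanycyte-like cells had 2.27 CPM (1.24 to 3.80). Endothelial-like cells had 0 UMIs of Cldn3, where 3 UMIs would be 14.0 CPM. Reads of Cldn3 and of its antisense neighbor Wbscr25 are told apart only if the counting used strand. Cldn1 was at 7.39 CPM (2.71 to 16.1) in VLMC-like cells from 6 UMIs and at 1.13 CPM in tanycyte-like cells from 7 UMIs. It was not detected in endothelial-like cells at this depth, with the same limit of 14.0 CPM.

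The 41 cells of the Ccn3 and Spon2 cluster, 0 of them called doublets, held more than 1 kind of claudin profile. 17 cells had Cldn10 and no Cldn11, 17 had Cldn11 and no Cldn10, 5 had both and 2 had neither. The genes that differed most between the cells with 1 claudin alone were picked after their values were seen and are a description of 17 cells each. The cells with Cldn10 alone had the epithelial keratins Krt17 and Krt18 at 818 and 780 CPM and the epithelial adhesion gene Epcam at 1100 CPM. The cells with Cldn11 alone had 0 UMIs of both keratins and Epcam at 37.2 CPM. The latter had Igfbp6 at 2712 CPM against 51.1 CPM, Slc47a1 at 780 CPM against 76.7 CPM and the efflux pump genes Abcg2 and Abcb1a at 594 and 322 CPM against 25.6 CPM each. All 7 Cldn3 UMIs of the cluster lay in cells with Cldn10 alone. F11r was at 166 and 111 CPM and Ocln at 38.4 and 49.5 CPM, from 13 and 9 UMIs and from 3 and 4 UMIs. Tjp1 was at 38.4 and 124 CPM, from 3 and 10 UMIs, and Cldn9 at 179 and 12.4 CPM, from 14 UMIs and 1 UMI. The marker Slc47a1 was detected in 14 of the 17 cells with Cldn11 alone and in 3 of the 17 with Cldn10 alone. Of the genes that name the cluster, Spon2 was at 1291 CPM with Cldn10 alone and 12.4 CPM with Cldn11 alone. Ccn3 was at 51.1 and 1399 CPM in the same order. Levels given for the cluster as a whole therefore average over unlike cells.

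Other genes of the junction were counted by the same 4-fold rule from 6 lists. Over all genes, 3.05% were higher and 5.05% lower in endothelial-like cells, and at most 2.95% and 4.85% in the other named barrier types. Of 18 other claudins, 17 were in the matrix and 3 passed the minimum of 50 UMIs. Cldn14 was higher in mature oligodendrocyte-like cells, at 50.3 CPM against 1.34 CPM in all other cells. Cldn9 was at 79.0 CPM in the Ccn3 and Spon2 cluster and at 278 CPM in pars tuberalis-like cells. Of 5 tested junctional adhesion genes, endothelial-like cells had 2 higher, Esam (1046 CPM) and Jam2 (312 CPM). Mature oligodendrocyte-like cells had Jam3 higher (424 CPM), whose protein also lies in myelinating glia, and VLMC-like cells had Clmp higher (122 CPM). Of 2 tested tricellular genes, Lsr was higher in endothelial-like cells (442 CPM) and Ildr2 in tanycyte-like cells (191 CPM). Both encode angulins, which mark the corners where cells meet. Of 15 tested scaffold and polarity genes, 1 was higher in endothelial-like cells, the cingulin-like gene Cgnl1 (158 CPM), and 2 in VLMC-like cells, Cgnl1 (81.2 CPM) and Pard6g (144 CPM). In endothelial-like cells 2 of the 15 were lower, Pard6a and Magi2, both with 0 UMIs. None of the 15 was higher in ependymocyte-like, tanycyte-like or mature oligodendrocyte-like cells. Of 9 adherens junction genes, Cdh5 (330 CPM) and Pecam1 (540 CPM) were higher in endothelial-like cells and none in the other named barrier types. The last list, of brain endothelial transport and fenestration genes, was chosen for endothelium, so its count in endothelial-like cells follows from the choice. Of its 6 genes, 5 were higher there (Slc2a1 at 2577, Abcg2 at 1153, Slco1c1 at 912, Abcb1a at 809 and Plvap at 344 CPM). Slc2a1 was also higher in ependymocyte-like cells (577 CPM). Mfsd2a was not, at 330 CPM in endothelial-like, 316 in astrocyte-like and 304 in OPC-like cells. The median log2 difference in endothelial-like cells was 2.40 for the 7 tested tight junction genes and -0.30 over all genes tested. It was 4.73 for the brain endothelial transport and fenestration list, which was chosen for these cells. In Ccn3 and Spon2 cells, Clmp, Lsr, Abcb1a and Abcg2 were higher besides Cldn9, and Jam3 (21.1 CPM) and Mfsd2a (0 UMIs) were lower. Further lower calls were Jam2 (5.42 CPM) and Ildr2 (6.50 CPM) in mature oligodendrocyte-like cells, and Ildr2 (1.23 CPM), Cdh2 (13.5 CPM) and Mfsd2a (13.5 CPM) in VLMC-like cells. 

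The genes whose level followed each tight junction gene most closely across the 13 types and the Ccn3 and Spon2 cluster were found by Pearson's r of log2(CPM + 10) over these 14 values. The 14 points share libraries and free RNA, and r is a description. Tie1 and Pitx1, given below, were also among the markers that named the types, so their r is not independent of the naming. For Cldn5 they were Tie1 (r = 0.998), Adgrl4 and Sox17, all highest in endothelial-like cells. For Cldn11 they were Nfe2l3 (r = 0.964), Poc1a and Tmem88b, highest in mature oligodendrocyte-like cells. For Cldn10 they were Trpm3 (r = 0.937), Gli3 and Mras, highest in astrocyte-like cells. Ocln was followed by Cdkn2b (r = 0.943), Rassf9 and Nos3, F11r by Ndst2 (r = 0.950), Casp8 and B4galt1, and Tjp1 by Ppard (r = 0.899), Apool and Itprid2. Cldn12 was followed by Nae1 (r = 0.920), Pip4p2 and Mageh1, all highest in OPC-like cells. For Cldn3, which rests on 45 UMIs, they included Syne4 (r = 0.983) and Pitx1, and for Cldn1, on 18 UMIs, Osr1 (r = 0.966), Aox3 and Igfbp2. Among the tight junction genes themselves, r was highest for Cldn5 with Tjp1 (0.744) and with Ocln (0.665), and lowest for Cldn12 with F11r (-0.68).

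Endothelial-like cells combined the most of these genes per cell. Of the 9 genes, a median of 3 had a UMI in an endothelial-like cell and a maximum of 6, although these cells were the shallowest of the barrier types. The median was 2 in ependymocyte-like cells and in the Ccn3 and Spon2 cluster, and 1 in tanycyte-like, VLMC-like and mature oligodendrocyte-like cells. With each cell at 1000 UMIs, the mean was 1.98 genes in endothelial-like, 1.06 in mature oligodendrocyte-like, 0.951 in the Ccn3 and Spon2 cluster, 0.473 in tanycyte-like, 0.411 in ependymocyte-like and 0.321 in VLMC-like cells. None of the 9 had a UMI in 38.4% of VLMC-like, 21.0% of tanycyte-like and 15.3% of ependymocyte-like cells, and in 3.57% of endothelial-like cells. This share was lower still in the Ccn3 and Spon2 cluster (2.44%), in astrocyte-like cells (1.97%) and in mature oligodendrocyte-like cells (0%). At these depths a cell without a UMI may still express the gene.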

How the data were processed

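The ME cells of 5 fasted and 5 refed mice were sequenced in 4 libraries, for which 32 records of lanes and index parts are listed. Reads were mapped to mm10 (GRCm38) and UMIs tallied by the authors in Cell Ranger 2.0, and the deposited matrix holds the raw counts. Gene identifiers were matched to symbols and positions in GENCODE vM21 (27645 of 27998). The annotation used for counting and its strand setting are not given in the sources used here.

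The genes, lists and marker lists were chosen with earlier results of these data known. No cell was removed for depth. Counts were scaled and log-transformed, and 2000 variable genes (without the 72 listed genes), 30 principal components, 15 neighbors and Leiden clusters at resolution 1 were computed with scanpy 1.11.5 and scikit-learn 1.9.0. A cluster took the name of a marker list when its score was at least 0.3 and 1.5 times the next, with at least 3 markers at least 4-fold above the median cluster. All 14 lists were scored, and the pseudocount was 10 CPM. 50 doublets (0.836%) were called by Scrublet and kept. Shares were also computed at 1000 UMIs per cell. Genes with at least 50 UMIs entered the 4-fold rule, and a count of 0 was read as up to 3 counts. Named are all 9 genes, listed genes past the rule, Plvap, Mfsd2a, Slc2a1 and the 3 closest genes by correlation. Lower calls, cluster leaders, endothelial markers and genes of the 41-cell cluster were named outside the rule, after their values were seen. The 4-fold rule and the naming of clusters were tried on simulated counts drawn from profiles of these data. That trial cannot show that the names are right, and the other steps were not tried in this way. With 1 sample, no p-value was computed, and the planned comparison of refed with fasted cells could not be made. The comparison of Cldn11 with oligodendrocyte genes used 4 genes in place of a longer list, and results that need some other genes, including another choice of that list, are not reported here.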

Additional observations from a re-analysis of the deposited data

How the results depend on the processing

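No paired analysis was possible because the cells could not be tied to a condition or library and no test was run. Alternatives were other cluster resolutions, K-means with 9 clusters, junction genes kept in the clustering, doublets left out, a filter on depth and mitochondrial UMIs, each barcode number left out, cells thinned to 1000 UMIs and other thresholds. Of 189 values recomputed for the main results, 169 stayed within the counting interval or within 1.5 times of a count, and the cause of the other 20 was not tested. Levels in types below the highest were less steady, as 54 recomputed values stayed and 20 moved. Among them, leaving out 1 barcode number gave 347 to 516 CPM for Cldn10 and 76.6 to 97.3 CPM for Ocln in tanycyte-like cells. F11r in endothelial-like cells was then at 296 to 344 CPM and Cldn11 in VLMC-like cells at 112 to 159 CPM. With thinned cells the clusters changed, and an endothelial-like cluster of 124 cells gave Cldn5 at 3895, Tjp1 at 194 and Ocln at 355 CPM. Cldn11 in mature oligodendrocyte-like cells was then at 7861, Cldn12 in OPC-like cells at 22.4 and F11r in microglia-like cells at 965 CPM. Leaving out 1 barcode number gave 5611 to 6229 CPM for endothelial Cldn5, 6095 to 6778 CPM for Cldn5 in cells without Plvap, 8019 to 8271 CPM for Cldn11 and 0 to 42.0 CPM for Cldn3 in the Ccn3 and Spon2 cluster. The number of genes at least 4-fold higher in endothelial-like cells was 2 in place of 4 with thinned cells, with a pseudocount of 100 CPM and at 8-fold. In ependymocyte-like cells it was 0 in place of 1 under the same alternatives, and in tanycyte-like cells 1 in place of 0 with a pseudocount of 1 CPM and at 2-fold. K-means named no endothelial-like, microglia-like or OPC-like cluster, and the arachnoid rule named none with thinned cells, with K-means or without barcode number 3, so those values do not exist. Where its type was named, each gene kept its highest type, except Cldn12 with thinned cells and Cldn3, which was highest in pars tuberalis-like cells at resolution 0.5, with doublets left out and without barcode number 1 or 4. Precision is limited in rare types, with 84 endothelial-like cells, 41 cells in the Ccn3 and Spon2 cluster and 6 cells with Plvap.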

Other observations

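Outside the barrier types, pars tuberalis-like cells held UMIs of several claudins. Cldn9 was at 278 CPM and Cldn7 at 144 CPM there, beside Cldn3 at 36.0 CPM and Cldn10 at 89.9 CPM. This Cldn10 level was uneven, at 154, 10.3, 108 and 54.8 CPM in barcode numbers 1 to 4, with 14 of 45 UMIs in 1 cell. The Ccn3 and Spon2 cluster held the same claudins, with Cldn9 at 79.0, Cldn7 at 31.6, Cldn3 at 36.9 and Cldn10 at 753 CPM. Among its cells with 1 of Cldn10 and Cldn11 alone, Cldn9 (14 UMIs against 1) and Cldn3 (7 against 0) lay mainly with Cldn10. Cldn9 and Cldn7 were at 4.21 and 0.486 CPM in tanycyte-like cells. Both had 0 UMIs in endothelial-like and VLMC-like cells. The group was 87 cells, and these genes were singled out after their values were seen.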
